A study of Mus musculus with 4 samples.

Results

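The regions described here were autosomal islands of histone H3 lysine 9 trimethylation (H3K9me3) that contained a whole protein-coding gene, from its annotated start to its annotated end. They were found by placing the RefSeq gene bodies of mouse build mm10 on the deposited island lists, and no read count was used to choose them. Of 37777 autosomal islands in the lists of both genotypes, 677 met this rule. The wild-type (WT) list gave 268 of 12368 islands, or 2.17% (exact 95% interval 1.92 to 2.44%). The Suv39h1 knockout (KO) list gave 409 of 25409, or 1.61% (1.46 to 1.77%). Together the islands held 643 of 20558 autosomal protein-coding genes, or 3.13%. The intervals cover the counting of islands only.

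The mark was measured by chromatin immunoprecipitation and sequencing in CD8+ T cells of C57BL/6 mice, cultured for 3 days with interleukin-2 and with antibodies against CD3 and CD28. WT cells and cells lacking Suv39h1 each gave 1 H3K9me3 library and 1 input library, and the inputs are not analysed here. The kind of knockout allele, the number and age of the mice and whether animals were pooled are not stated in the labels. There were no replicates, so all values describe these 2 libraries, the genotypes were compared without a test, and the differences below cannot be set against a replicate spread. An island is a stretch of neighbouring windows that the island caller joined because the reads in it exceeded its threshold. A gene outside the islands of a list had no called cover there, which does not show that the mark was absent.

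H3K9me3 marks compact, transcriptionally silent chromatin. It is written by several methyltransferases, among them SUV39H1, its relative SUV39H2 and SETDB1, and is bound by HP1 proteins. Repeats and clustered genes that are used in other tissues, such as the receptor genes of the nose, are well known sites of the mark. An island that takes in a whole gene covers its start, its coding sequence and its end alike, whereas most islands touch a gene in part or lie between genes.

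The start sites of 10 genes are printed to show what lies under such islands. Each sequence is the RefSeq window of GRCm38.p6, from 250 bases before to 50 bases after the gene's start, 5′ to 3′ on the gene's strand, and capitals mark CpG dinucleotides. Tas2r104, Tas2r105 and Tas2r114 are bitter taste receptor genes that shared 1 WT island. Olfr775 and Olfr776 are olfactory receptor genes that shared 1 KO island. Chil3 and Chil4 code for chitinase-like proteins and lay in the longest islands. Il17a codes for the cytokine interleukin 17A and was whole in both lists. Chgb and Sox11 are among the few genes with a CpG-rich start, one inside a WT island and the other inside a KO island.
Tas2r104 at chr6:131685695-131685994, minus strand: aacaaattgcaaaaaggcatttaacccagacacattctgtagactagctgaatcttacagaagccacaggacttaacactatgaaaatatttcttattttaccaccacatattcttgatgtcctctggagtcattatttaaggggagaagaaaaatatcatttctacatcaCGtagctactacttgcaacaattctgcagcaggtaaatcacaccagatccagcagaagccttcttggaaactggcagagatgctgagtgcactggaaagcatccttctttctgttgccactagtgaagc
Tas2r105 at chr6:131687414-131687713, minus strand: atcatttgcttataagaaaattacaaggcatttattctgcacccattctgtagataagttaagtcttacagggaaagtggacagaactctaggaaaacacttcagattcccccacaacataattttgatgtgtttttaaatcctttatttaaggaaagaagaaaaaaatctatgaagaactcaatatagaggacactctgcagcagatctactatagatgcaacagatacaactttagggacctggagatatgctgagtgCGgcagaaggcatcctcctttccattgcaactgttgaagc
Tas2r114 at chr6:131690014-131690313, minus strand: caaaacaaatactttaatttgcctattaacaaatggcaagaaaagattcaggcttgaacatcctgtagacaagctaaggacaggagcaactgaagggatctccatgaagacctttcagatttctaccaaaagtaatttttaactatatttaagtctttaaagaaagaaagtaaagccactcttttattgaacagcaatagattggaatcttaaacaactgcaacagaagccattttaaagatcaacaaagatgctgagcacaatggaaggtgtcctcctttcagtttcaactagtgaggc
Olfr775 at chr10:129250286-129250585, plus strand: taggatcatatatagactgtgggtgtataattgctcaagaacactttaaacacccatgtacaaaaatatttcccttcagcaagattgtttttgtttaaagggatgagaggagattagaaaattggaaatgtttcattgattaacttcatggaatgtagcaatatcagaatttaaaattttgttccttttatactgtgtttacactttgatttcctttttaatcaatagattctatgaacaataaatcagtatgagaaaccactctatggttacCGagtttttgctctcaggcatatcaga
Olfr776 at chr10:129260713-129261012, plus strand: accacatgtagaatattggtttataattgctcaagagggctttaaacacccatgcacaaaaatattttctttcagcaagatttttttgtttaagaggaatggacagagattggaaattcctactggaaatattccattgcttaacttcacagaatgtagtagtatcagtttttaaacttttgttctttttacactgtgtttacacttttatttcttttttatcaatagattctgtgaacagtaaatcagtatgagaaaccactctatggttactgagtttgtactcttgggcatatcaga
Chil3 at chr3:106167515-106167814, minus strand: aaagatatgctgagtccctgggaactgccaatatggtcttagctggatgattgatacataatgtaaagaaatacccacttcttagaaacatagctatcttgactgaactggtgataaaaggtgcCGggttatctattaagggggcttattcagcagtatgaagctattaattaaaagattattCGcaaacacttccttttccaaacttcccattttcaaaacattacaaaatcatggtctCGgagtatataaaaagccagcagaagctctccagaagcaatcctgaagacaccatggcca
Chil4 at chr3:106219430-106219729, minus strand: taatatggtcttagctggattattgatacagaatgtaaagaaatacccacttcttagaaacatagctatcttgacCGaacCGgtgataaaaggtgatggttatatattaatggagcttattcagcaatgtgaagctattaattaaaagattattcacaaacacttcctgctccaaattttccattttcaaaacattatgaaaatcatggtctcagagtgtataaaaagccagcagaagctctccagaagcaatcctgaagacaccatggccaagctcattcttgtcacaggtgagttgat
Il17a at chr1:20730655-20730954, plus strand: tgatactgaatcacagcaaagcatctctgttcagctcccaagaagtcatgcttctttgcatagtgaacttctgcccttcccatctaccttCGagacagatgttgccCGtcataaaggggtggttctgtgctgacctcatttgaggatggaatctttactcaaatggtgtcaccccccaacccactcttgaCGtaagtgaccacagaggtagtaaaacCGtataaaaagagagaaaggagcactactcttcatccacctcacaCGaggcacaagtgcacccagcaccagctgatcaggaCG
Chgb at chr2:132781392-132781691, plus strand: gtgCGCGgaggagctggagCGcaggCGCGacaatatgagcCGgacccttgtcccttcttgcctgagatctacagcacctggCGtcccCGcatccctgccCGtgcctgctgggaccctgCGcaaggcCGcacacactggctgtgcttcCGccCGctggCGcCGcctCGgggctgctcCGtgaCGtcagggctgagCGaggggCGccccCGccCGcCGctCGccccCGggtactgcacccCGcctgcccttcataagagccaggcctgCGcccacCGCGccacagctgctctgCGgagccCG
Sox11 at chr12:27342669-27342968, minus strand: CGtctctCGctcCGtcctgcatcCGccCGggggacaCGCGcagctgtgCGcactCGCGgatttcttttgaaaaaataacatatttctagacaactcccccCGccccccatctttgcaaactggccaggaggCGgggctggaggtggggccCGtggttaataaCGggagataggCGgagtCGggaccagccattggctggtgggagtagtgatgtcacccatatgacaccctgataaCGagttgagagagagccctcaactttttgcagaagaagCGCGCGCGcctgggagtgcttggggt

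The windows differed widely in CpG content. Both printed olfactory receptor windows and the 3 taste receptor windows held 0 or 1 CpG each. Chil3 had 3, Chil4 had 2 and Il17a had 6, while Sox11 had 21 and Chgb had 31. The windows of Olfr775 and Olfr776 were 82.7% identical in a global alignment, those of Chil3 and Chil4 76.3%, and those of Tas2r104 and Tas2r105 64.9%.

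More genes lay wholly inside islands in the KO list than in the WT list, and the 2 sets were largely different. The WT islands held 302 genes (1.47% of autosomal protein-coding genes) and the KO islands 448 (2.18%), a ratio of 1.48. The number of gene-holding islands differed 1.53-fold, and the number of all autosomal islands 2.05-fold. The KO list also carried more reads in its autosomal islands, 9994598 against 5546970, and whole-library depth is unknown, so the part of depth in these counts was not tested. Whole in both lists were 107 genes (0.52%), while 195 (0.949%) were whole only in the WT list and 341 (1.66%) only in the KO list. The shared genes made up 35.4% of the WT set and 23.9% of the KO set. The KO list was also reduced to the WT number of islands by keeping those with most reads, and 349 genes remained in it. At similar densities these are mostly the longer islands, which hold whole genes more often. In KO, 0.872% of islands under 10 kb held a whole gene, and 2.36% of those from 10 to 20 kb. The reduction therefore favours gene-holding KO islands and is not a neutral match.

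Most islands held a single gene that filled a small part of the island. On the nearer side the gene lay a median of 2683 bases from the island's edge in WT and 2665 in KO. Of the WT islands, 240 held 1 gene, 22 held 2 and 6 held 3, and of the KO islands 375, 29 and 5. Gene-holding islands had a median length of 13 kb in WT (5.5 to 153 kb) and 12 kb in KO (4.5 to 80.5 kb), against 10 and 9 kb for the other islands, a difference the rule itself favours because a longer island can take in more. Their read density was like that of the other islands, with a median of 39.7 reads per kb in WT and 40 in KO against 40.4 and 40.1. These densities are unscaled within each list. Genes filled a median of 10.2% of the island in WT and 9.76% in KO. An annotated pseudogene lay wholly inside 17 gene-holding islands in WT (6.34%) and 39 in KO (9.54%), against 3.63% and 2.56% of the other islands. These shares were not matched for island length, and longer islands can take in more pseudogenes too.

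The largest group by far was the olfactory receptor family, the receptors of odorants in the nose. It gave 418 of the 643 genes, or 65.0%, although it makes up 5.37% of autosomal protein-coding genes. In WT 189 of 1103 olfactory receptor genes were whole (17.1%), and in KO 310 (28.1%), a ratio of 1.64. Of these, 108 were whole in WT alone, 229 in KO alone and 81 in both. The vomeronasal type 1 receptors, which sense pheromones, gave 56 of 231 genes, 23 in WT (9.96%) against 44 in KO (19.0%), or 1.91 times as many. With the KO list reduced to its islands with most reads, at the WT number, the KO minus WT difference fell. It went from 121 to 54 for olfactory and from 21 to 7 for vomeronasal type 1 genes. These 2 receptor families made up 73.7% of the genes. All remaining genes together numbered 169, 90 of them in WT and 94 of them in KO, which is a ratio of 1.04. That last difference of 4 genes changed direction under 4 other settings, to between -14 and -1, and its sign is therefore not given as a result.

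**Figure D1:**
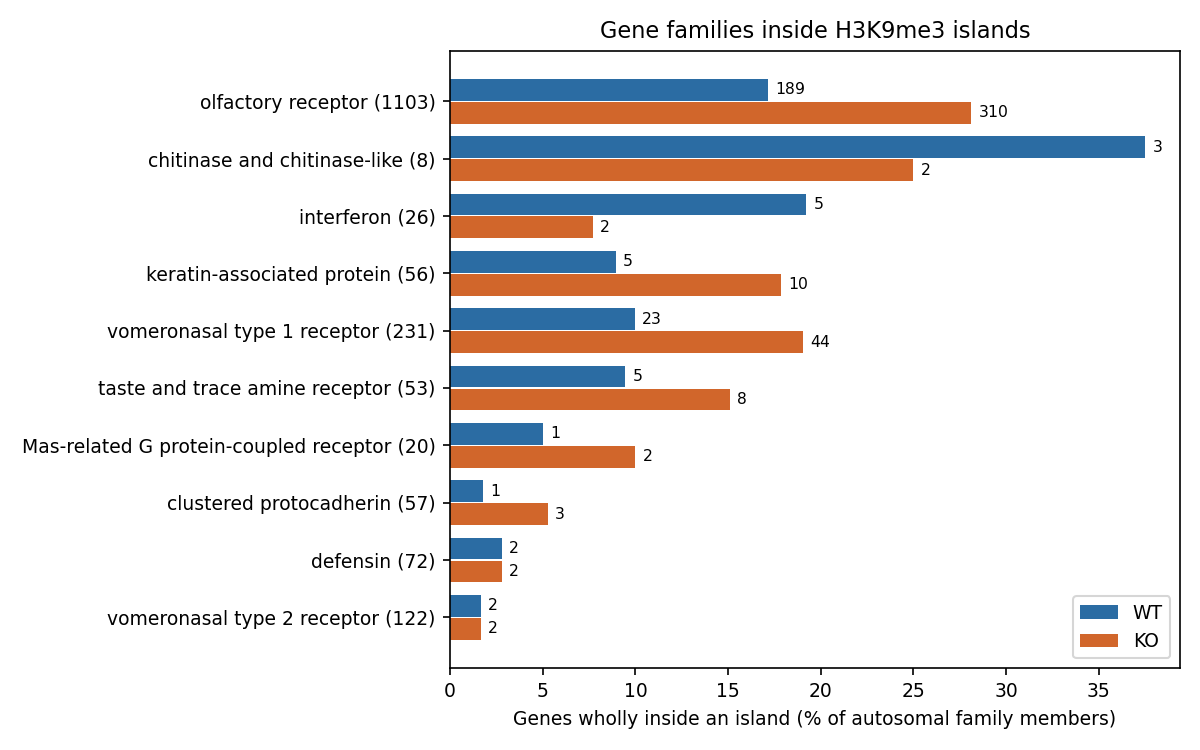
Share of each family's autosomal genes that lay wholly inside an island, for WT (blue) and KO (orange), in percent; numbers beside the bars count genes, and family size is in parentheses. The 10 families with 3 or more whole genes are shown; olfactory receptors reached 17.1% in WT and 28.1% in KO, while interferons and chitinases had more in WT.

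Single receptor genes ranged from the same cover in both lists to cover in 1 list alone. Olfr825 lay in a WT island of 31.5 kb with 1168 reads, and Olfr1491 in one of 33.5 kb with 1163 reads. The KO list covered none of Olfr825 and 17.9% of Olfr1491. Olfr791 and Olfr792 shared a KO island of 41.5 kb with 1752 reads, the third in length among gene-holding KO islands, and had no WT cover. Olfr820 was whole in both lists, inside a WT island of 7 kb with 312 reads and a KO island of 33 kb with 1475 reads. Among vomeronasal type 1 genes, Vmn1r82 lay in a KO island of 27 kb with 1067 reads and Vmn1r237 in a WT island of 24.5 kb with 986 reads, each with no cover in the other list. Vmn1r80 and Vmn1r89 were whole in both, at 764 and 663 reads in WT and 655 and 869 in KO. The KO excess of the 2 families was therefore not a property of every gene, since 108 olfactory and 12 vomeronasal type 1 genes were whole in WT alone.

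Other chemosensory receptors followed with small numbers. Taste and trace amine receptors gave 12 of 53 genes, 5 in WT and 8 in KO. Tas2r102 alone was whole in both, in a WT island of 15 kb with 590 reads and a KO island of 14 kb with 536. Tas2r139 was whole in WT alone, in an island of 14.5 kb with 612 reads, and Tas2r116 and Tas2r124 in KO alone, in islands with 587 and 536 reads. Vomeronasal type 2 receptors, whose genes are longer, with a median of 24.6 kb, gave 4 of 122. These were Vmn2r71 and Vmn2r89 in WT and Vmn2r74 and Vmn2r110 in KO. Vmn2r110, of 22.4 kb, was the longest gene whole in KO alone and lay in an island of 40 kb with 1628 reads, and 12.3% of it was covered in WT. Mas-related receptors, found on sensory neurons and mast cells, gave Mrgprb3 in WT and Mrgprb1 and Mrgprb2 in KO. Mrgprb2, the mast cell member, was a near miss in WT, where 99.5% of it lay in 1 island.

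Keratin-associated proteins, which form the matrix of hair, gave 15 of 56 genes, 5 in WT and 10 in KO, and 0 in both. Of all 169 genes outside the olfactory and vomeronasal type 1 families only 15 were whole in both. A count of 0 therefore does not set this family apart. The WT genes were Krtap28-13 on chromosome 1, in an island of 24.5 kb with 939 reads, and 4 neighbours on chromosome 11. The KO genes were 3 on chromosome 11 and 7 on chromosome 16, among them Krtap21-1 in an island of 17.5 kb with 723 reads. Keratins themselves, the filament proteins, gave 0 of 53. Lce1k and Lce3c, cornified envelope genes of the epidermis, were whole in KO alone. Mup5, a major urinary protein gene of 26.7 kb, was whole in both lists, in a WT island of 42.5 kb with 2451 reads and a KO island of 41 kb with 2574 reads. Cyp3a13, a cytochrome P450 of 32.7 kb, lay in a WT island of 54 kb with 2186 reads, and the KO list covered 19.9% of it. Defensins, antimicrobial peptides, gave Defb38 in WT and Defb11 in both, and AY761185 in KO.

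Further families gave few whole genes each, some of them in 1 list only. Exocrine gland-secreted peptides gave Esp38 in WT and Esp23 in KO, secretoglobins Scgb1b24 in WT and Scgb3a2 in KO, and cystatins Cst8 in WT and Cstdc1 in KO. Serine proteases of the chymotrypsin type gave Prss37 in WT and Prss47 in KO, the latter with 83.4% covered in WT. Lcn8, a lipocalin, Ugt1a1, the bilirubin-conjugating enzyme, and Rpl31-ps12 were whole in WT alone, and Prl2b1, a prolactin-family gene, in KO alone. Clustered protocadherins, neuronal adhesion proteins, gave Pcdhb18 in WT and Pcdhb9, Pcdhb20 and Pcdhb21 in KO, all on chromosome 18. The last 2 shared a KO island of 18 kb with 650 reads.

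Cytokine genes were few, and most of them were whole in WT alone. The interferon family, antiviral cytokines, gave 7 of 26 genes, all of them type I genes on chromosome 4. Ifna1, Ifna2, Ifna7, Ifna11 and Ifnab were whole in WT alone, in islands of 755 reads for Ifna1, 492 for Ifna2 with Ifnab, and 466 for Ifna7 with Ifna11. Ifna13 and Ifna15 were whole in KO alone, in islands of 674 and 588 reads, and 42.8% of Ifna15 was covered in WT. Of 78 interleukin genes and interleukin receptor genes, 2 were whole. Il17a lay in a WT island of 22.5 kb with 894 reads and a KO island of 6 kb with 230 reads, and in KO its edge was only 4 bases from the island's edge. Il20, a cytokine of the interleukin-10 family, was whole in WT alone, in an island of 7.5 kb with 308 reads. Of chemokines 0 of 38 and of major histocompatibility complex genes 0 of 35 were whole, and neither family had a base in any island.

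In 4 lists of T cell genes (stem-like and memory, effector, inhibitory, and identity) 0 of 75 autosomal genes were whole in either list, and 25 of these were under 10 kb. Against the background of 1.47% in WT and 2.18% in KO, a count of 0 among so few genes sets this group apart from no other. In WT the largest share inside 1 island was 66.6% in the stem-like and memory list, for Il7r, the interleukin-7 receptor. In the effector list it was 34.1%, for the cytokine gene Il2, and in the inhibitory list 30.8%, for the receptor gene Btla. In KO the largest shares were 3.02% for Bach2 in the stem-like and memory list and 1.97% for Tox in the inhibitory list. Of genes that write, read or remove H3K9 methylation 0 of 21 were whole, with Kdm4d, a demethylase, highest at 40.8% in WT and 34.2% in KO. Housekeeping genes gave 0 of 18.

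Zinc finger genes, a family often linked to H3K9me3, were touched but not taken in whole. Of 418 such genes 0 were whole in either list, while 110 had some cover in WT and 91 in KO. For comparison, 2080 of 16938 genes in no family had some cover in WT and 1804 in KO. The zinc finger genes had a median length of 17.4 kb, with 66 under 10 kb and 352 longer. Outside both receptor families, 2.58% of genes under 10 kb and 0.113% of longer ones were whole in either list. At such shares a count of 0 does not set the family apart. The nearest were in WT, Zfp770 with 99.4% of its body in 1 island, Zfp2 with 93.6%, Zfp68 with 92.3% and Zfp709 with 91.1%. Histone genes, of which 77 of 81 were under 10 kb, also gave 0, as did serpins (0 of 62). In all, 21 of the 40 families searched had a whole gene and 19 had none.

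Outside the families, 100 genes were whole, 55 in WT and 54 in KO, of which 32 carried clone-type symbols. The groups in this and the next paragraph were put together after their values were seen, so their counts describe and support nothing. Among developmental transcription factors, Tcf24, Klf14, Bsx, Ferd3l and Nkx2-1 were whole in WT alone and Myf5 and Sox11 in KO alone. Nkx2-1, a regulator of lung and thyroid, lay in a WT island of 18 kb with 610 reads. Myf5, a factor of muscle precursors, lay in a KO island of 13 kb with 465 reads, and Sox11, a factor of neural progenitors, in one of 11 kb with 419 reads, 113 kb from the nearest WT island. In a mixed group of neuropeptide, secretory and nervous system genes, 7 of 8 were whole in WT alone. Among them were Vip (551 reads), the granule protein gene Chgb (856 reads) and the ghrelin receptor Ghsr (472 reads). Of these 7, the KO list covered 66.8% of Syt4 and 55.1% of Fgf20. The exception was Rgs4, an inhibitor of G protein signalling, which was whole in KO alone with 469 reads.

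Of 18 genes of sperm, testis, oocyte and epididymis, 4 were whole in WT alone, 10 in KO alone and 4 in both. This split is close to that of all 643 genes, with 195, 341 and 107. Of the 6 Pate genes, which code for proteins of the male tract, 4 were whole in KO alone, and Pate10 was whole in both, with 415 reads in WT and 698 in KO. Mos, the oocyte kinase, lay in a KO island of 8 kb with 320 reads, and Spam1, the sperm hyaluronidase, in one of 13 kb with 497 reads. Rad51ap2 was whole in KO alone, with 86.3% of it covered in WT. In a small group of leukocyte and inflammatory genes, 5 of 6 were whole in WT alone. These were Ncr1, a receptor of natural killer cells (496 reads), S100a9, a protein of neutrophils (895 reads), Spp1, osteopontin (760 reads), Gpr171 (867 reads) and Gpr141b (464 reads). The KO list covered 23.3% of S100a9 and 66.1% of Gpr171 and none of the other 3. Apcs, the serum amyloid P gene, was whole in KO alone with 521 reads. Cdkn2b, an inhibitor of the cell cycle, was whole in WT alone, in an island of 18 kb with 709 reads.

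Islands with 2 or 3 genes mostly held neighbouring receptor genes, and gene-holding islands in general mostly held receptor genes. There were 28 in WT with 62 genes and 34 in KO with 73 genes, with a median length of 17.8 kb in both lists, against 12.5 and 11.5 kb for islands of 1 gene. Olfactory receptors alone filled 18 of the WT and 26 of the KO islands, and no island held only vomeronasal type 1 genes. Of all gene-holding islands, 191 of 268 in WT and 325 of 409 in KO held a gene of these 2 families. Islands with several genes were therefore not richer in them. Where strand was known, all genes of the island pointed the same way in 12 of 18 WT and 19 of 24 KO islands. For comparison, 70.8% of neighbouring olfactory receptor pairs within 50 kb shared a strand. The start windows of genes in the same island were in general no near copies, with a median identity of 49.7% over 29 pairs in WT and 50.4% over 30 pairs in KO. The range was 43.7 to 81.4% and 44.8 to 92.1%.

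The longest gene-holding island was in WT, at chr3:106113001-106266000 (mm10), and took in Chia1, an acidic chitinase gene, with Chil3 and Chil4. It spanned 153 kb with 11249 reads, or 73.5 reads per kb. The KO list covered 91.5% of it in separate islands. One of 45 kb with 3032 reads held Chil3, and one of 80.5 kb with 5719 reads, the longest gene-holding island in KO, held Chil4. Chia1 was 59.3% covered in KO and so was whole in WT alone. The densest gene-holding island was a WT island of 111 kb at chr1:88208501-88319500, which held Ugt1a1, Mroh2a and Hjurp, a chaperone of the centromeric histone, with 16925 reads or 152 reads per kb. The KO list had no base in it. The median of gene-holding WT islands was 39.7 reads per kb. The inputs are not analysed, so whether input reads were also raised at this and the other dense islands was not tested. Mroh2a, at 35.3 kb, was the longest gene whole in any island.

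Dense islands at the same place in both lists also occurred. Smok2a and Smok2b, which code for sperm motility kinases, shared an island at chr17:13211501-13239000 with the same ends in both lists. It held 2058 reads in WT (74.8 per kb) and 2565 in KO (93.3 per kb), the densest gene-holding island in KO. Mucl2, a mucin-like gene, lay in a WT island of 27 kb with 1447 reads and a KO island of 32 kb with 1682 reads. At 53.6 and 52.6 reads per kb, both lay above the upper quartile of gene-holding islands, 41.6 in WT and 42.2 in KO.

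The other islands of 3 genes were ordinary in density. The taste receptor island that held the 3 printed Tas2r windows lay at chr6:131679001-131691000, spanned 12 kb with 481 reads and had no KO cover. Olfr617, Olfr618 and Olfr619 shared a WT island of 26 kb with 1070 reads, and Olfr1262, Olfr1263 and Olfr1264 one of 25.5 kb with 943 reads. In KO, Olfr775, Olfr776 and Olfr777 lay at chr10:129241501-129271000, in 29.5 kb with 1275 reads. The WT list covered 61.0% of that island and held Olfr776 and Olfr777 in 1 island of 19 kb with 792 reads, but not Olfr775. Olfr904, Olfr905 and Olfr906 shared a KO island of 39 kb with 1516 reads, of which only Olfr904 was whole in WT, with 431 reads.

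Gene models of very small size gave the last of these. At chr16:89262501-89277500 a KO island of 15 kb with 630 reads held Gm52260, Gm52233 and Gm35342, and its neighbour at chr16:89247001-89260000 held Gm35091, Gm35174 and Gm52266 in 13 kb with 515 reads. No base of either was in a WT island. They lie between Krtap20-2 and Krtap21-1, and the 3 gene models of the first are 0.144 to 0.159 kb long. The windows of Gm52260 and Gm52233 were 92.1% identical, the highest of all pairs, and counts over such copies are uncertain where a read could match more than 1 of them.

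**Figure D2:**
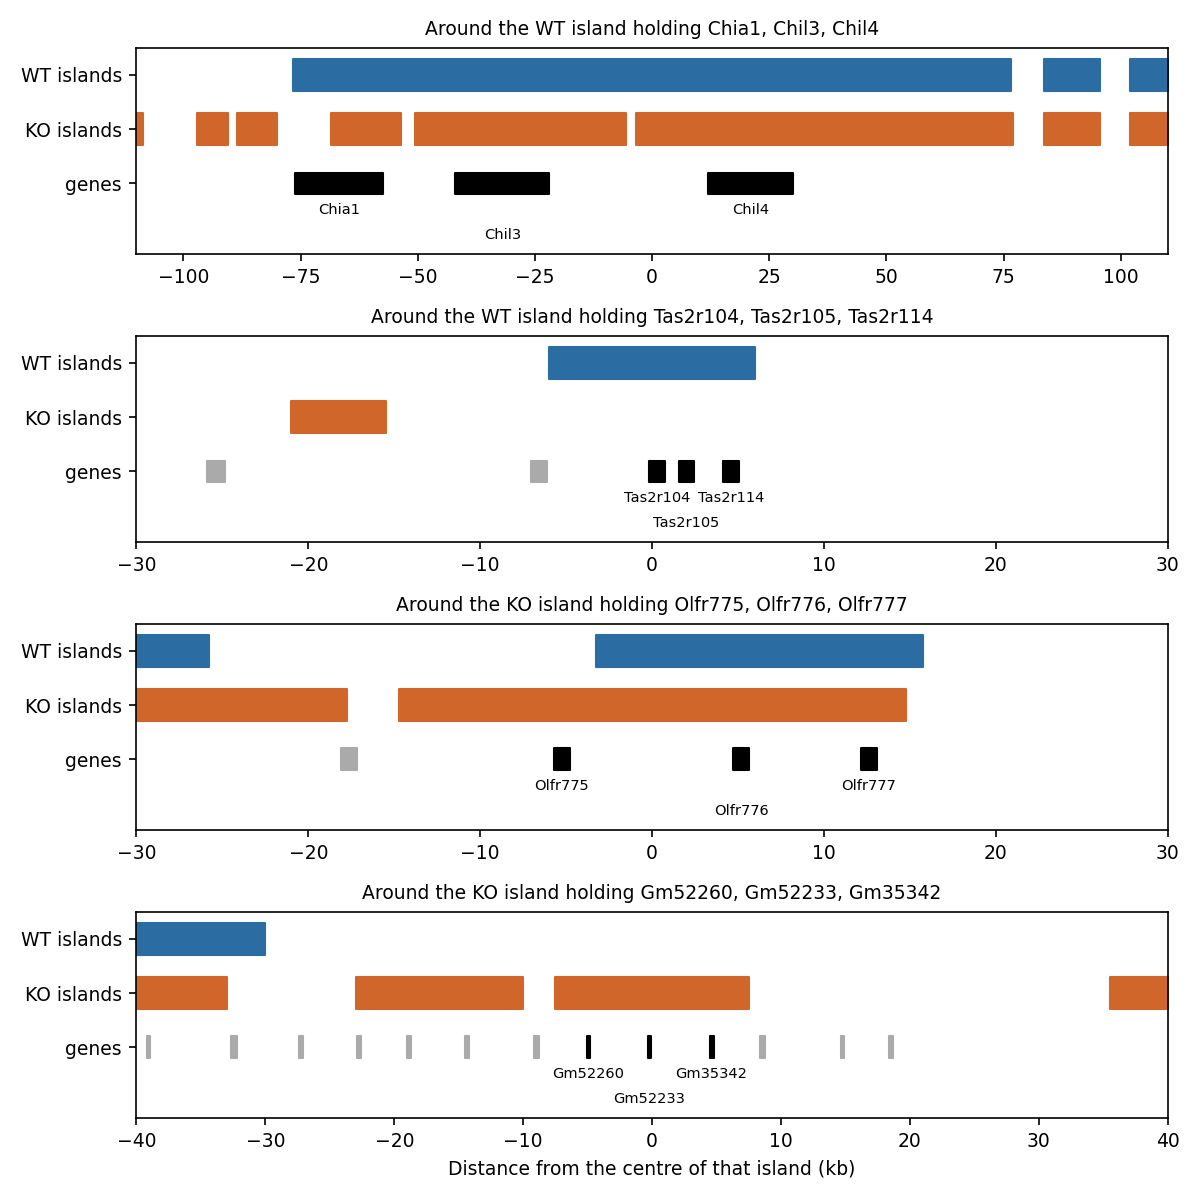
Called islands of WT (blue) and KO (orange) around 4 islands with 3 genes each; black bars are the genes held whole by the centred island, grey bars are other protein-coding genes, and the x axis is the distance from its centre in kb. The 153 kb WT island of Chia1, Chil3 and Chil4 faces separate KO islands; the Tas2r island has no KO cover, the Olfr775 to Olfr777 island is partly covered in WT, and the Gm52260 island has no WT cover.

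Short genes made up nearly all of the set, as the rule would lead to. Of the 643 genes, 628 were under 10 kb, and their median length was 0.954 kb against 17.6 kb for all autosomal genes. Among genes under 10 kb, 4.01% were whole in WT and 6.05% in KO. Under 1 kb these shares were 13.1 and 21.7%, from 1 to 2 kb 4.82 and 8.63%, and from 2 to 5 kb 1.96 and 1.74%. Of genes of 50 kb or more 0 of 4716 were whole. The KO excess was thus seen below 2 kb and not from 2 to 50 kb, where the counts were equal or slightly higher in WT.

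At the same length, olfactory receptor genes were whole more often than other genes. Among olfactory receptor genes under 1 kb, 140 of 776 were whole in WT and 237 in KO (30.5%). Among the 406 other genes under 1 kb, without vomeronasal type 1 genes, the shares were 5.42 and 6.90%. The length was a multiple of 3 in 82.3% of the 418 olfactory receptor gene models. Exon structure was not used here, so it was not tested how many of them leave out untranslated exons.

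**Figure D3:**
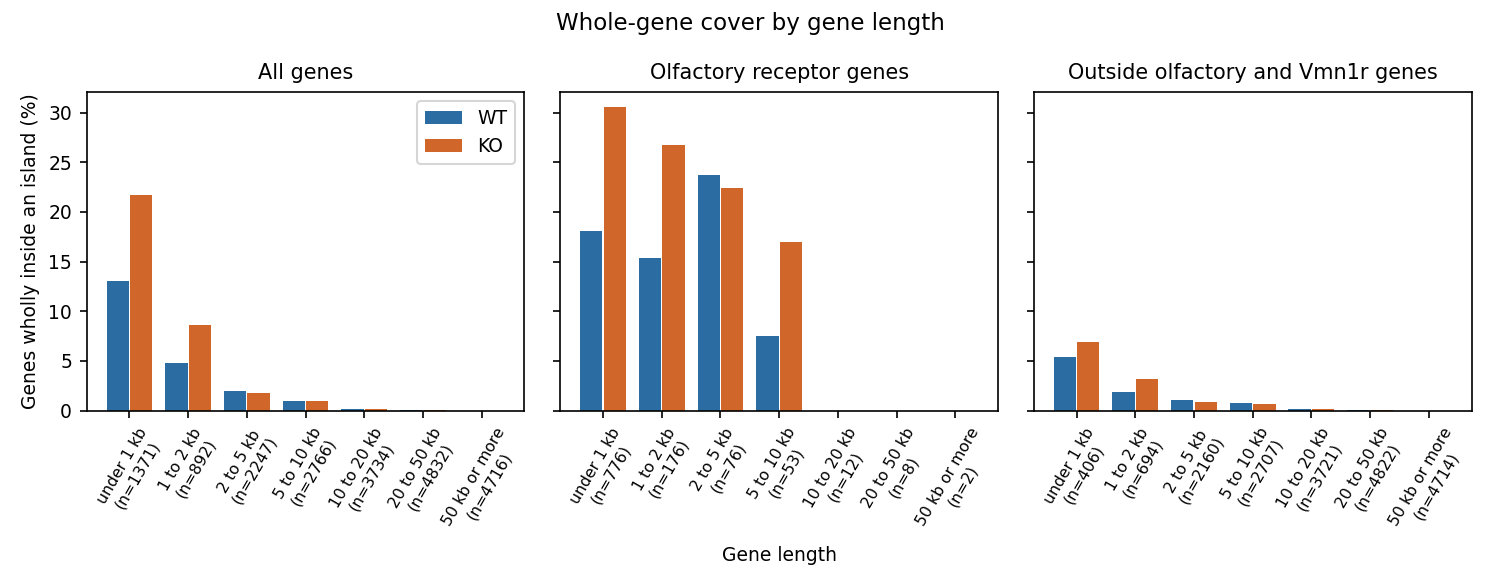
Percent of autosomal protein-coding genes wholly inside an island by gene length, for all genes, olfactory receptor genes and genes outside the olfactory and vomeronasal type 1 families, with WT in blue, KO in orange and the number of genes under each class. Under 1 kb, 30.5% of olfactory receptor genes and 6.90% of the genes outside both families were whole in KO.

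The excess of olfactory receptor genes in KO was uneven over their clusters. On chromosome 2, with 287 genes, 36 were whole in WT and 92 in KO, and on chromosome 9, with 130 genes, 21 and 54. On chromosome 7, with 239 genes, the counts were closer, 44 and 51. Chromosome 10 had the largest share in both lists among chromosomes with at least 20 such genes, 27 and 33 of 68, and 19 of these were whole in both. On chromosome 11 WT had more, 12 against 10 of 83. KO had more on 10 of 16 chromosomes, WT on 3, and 3 were equal, at 0 or 1 gene in each list. Vomeronasal type 1 genes were more often whole in KO on 4 of 7 chromosomes. The counts were 8 and 19 of 125 on chromosome 7, and 9 and 12 of 52 on chromosome 6. The other 3 chromosomes had only 1 or 2 such genes each, with 0 whole in either list. For all other genes KO had more on 6 of 19 chromosomes, WT on 10, and 3 were equal.

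**Figure D4:**
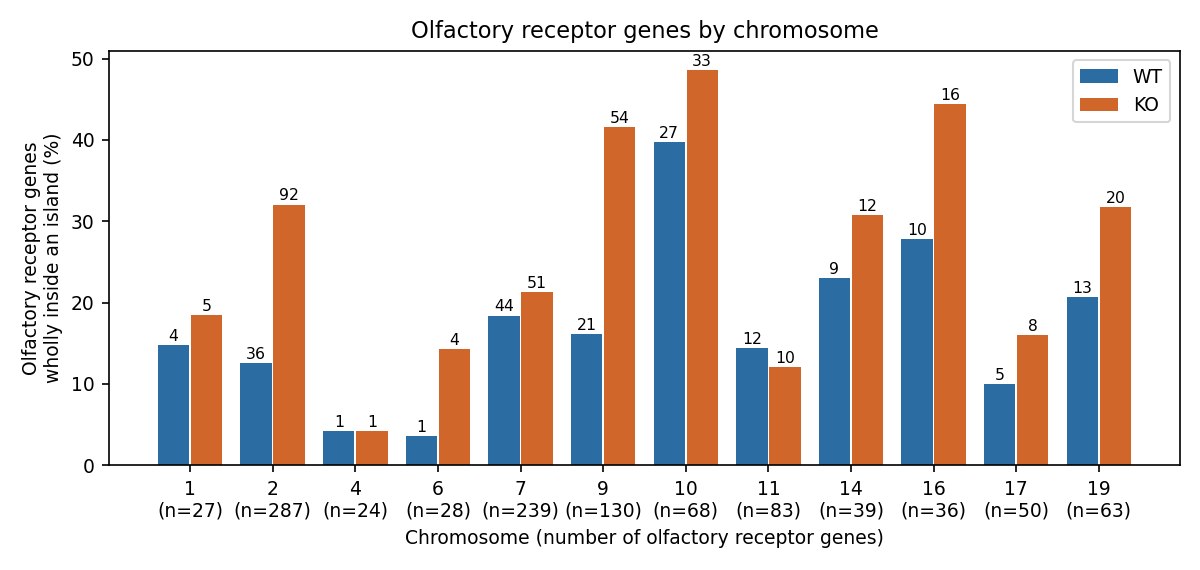
Percent of the olfactory receptor genes of a chromosome that lay wholly inside an island, in WT (blue) and KO (orange), with gene counts above the bars, for chromosomes with at least 20 such genes. Chromosomes 2 and 9 show the widest gaps, with 36 against 92 and 21 against 54 genes, and on chromosome 11 WT is higher.

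Gene-holding islands met an island of the other list more often than the other islands did. In WT 174 of 268 (64.9%, exact 95% interval 58.9 to 70.6%) were overlapped by at least 1 base, against 47.6% of the other islands. In KO 176 of 409 (43.0%, 38.2 to 48.0%) were, against 24.6%. Gene-holding islands are longer, which alone raises the chance of contact, so the shares were set side by side within length classes. From 10 to 20 kb they were 61.4 against 50.4% in WT and 49.3 against 26.4% in KO, and under 10 kb 64.9 against 42.3% in WT and 22.6 against 22.1% in KO. From 20 to 40 kb they were 78.0 against 70.7% in WT and 63.0 against 46.1% in KO. The few WT islands of 40 kb or more went the other way, 3 of 4 against 9 of 11. Among the 107 genes whole in both lists, the KO island was longer for 52, the WT island for 49, and 6 were equal. Their median read density was 40.2 reads per kb in WT and 41.1 in KO.

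Genes whole in 1 list alone mostly had no cover at all in the other. This held for 164 of the 195 genes of WT alone (84.1%) and for 318 of the 341 of KO alone (93.3%). These genes are mostly short and by the rule not whole in the other list, which favours no cover there. Lack of cover was also common among all 1103 olfactory receptor genes, of which 229 had some cover in WT and 400 in KO. The nearest island of the other list lay at a median distance of 8.27 kb for WT alone and 23.0 kb for KO alone. The KO list has more islands to be near. For olfactory receptor genes these distances were 5.52 and 23.0 kb, and for genes outside both receptor families 19.8 kb in both directions. Few genes lay right at an island's edge, though asking for 2 kb on each side left 192 genes in WT and 282 in KO. The tightest margins inside were 33 bases for Olfr768 and 38 for Bsx in WT, and 4 for Il17a and 10 for Olfr853 in KO. Just outside, with at least 90% of the gene in 1 island, were 24 genes in WT and 14 in KO, with shares of 90.2 to 99.5% in WT and 90.6 to 99.5% in KO.

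The start sites inside these islands were poor in CpG. A RefSeq start window was found for 545 of the 643 genes (84.8%), with a median of 1 CpG per 300 bases, against 14 for all autosomal genes. At least 10 CpG were present in 15 windows (2.75%), against 58.6% of all genes and 43.7% of genes under 10 kb that were not whole in an island. Their median GC content was 35.7% against 56.7% for all. Olfactory receptor windows had a median of 1 whether the gene was whole in an island or not, so the low value belongs to that family. Outside both receptor families, genes under 10 kb inside islands reached 10 CpG in 9.6% of windows, and the others of that size in 50.5%.

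The 15 CpG-rich windows were all from genes outside both receptor families and whole in 1 list alone. They were 9 of 61 such windows in WT and 6 of 64 in KO. Nearly all of the 137 windows outside these families were from genes in 1 list alone, so this count sets the CpG-rich genes apart from no other. In WT they were Chgb with 31, Papolb, a testis poly(A) polymerase gene, with 23, Hjurp with 22, Cdkn2b with 18, Bsx with 17, Ghsr with 16, Pcdh8 with 14, Nkx2-1 with 12 and 4930544G11Rik with 10. In KO they were Rad51ap2 with 26, Taf7l2 with 22, Sox11 with 21, Gas1 with 17, Rgs4 with 13 and Wnt16 with 10. Among the 92 windows of genes whole in both lists, most of them receptor genes, the highest value was 6. The letters TATAAA, searched on both strands, were present in 43.5% of the members' windows against 13.5% of all windows and 20.2% of those of genes under 10 kb outside islands. Within the receptor families the shares were closer, at 45.8% of olfactory receptor windows inside islands against 38.2% of the others, and 45.8% against 40.6% for vomeronasal type 1 genes. A match describes letters and not a working element. The whole 300-base window lay inside the island for 98.1% of the genes in WT and in KO.

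**Figure D5:**
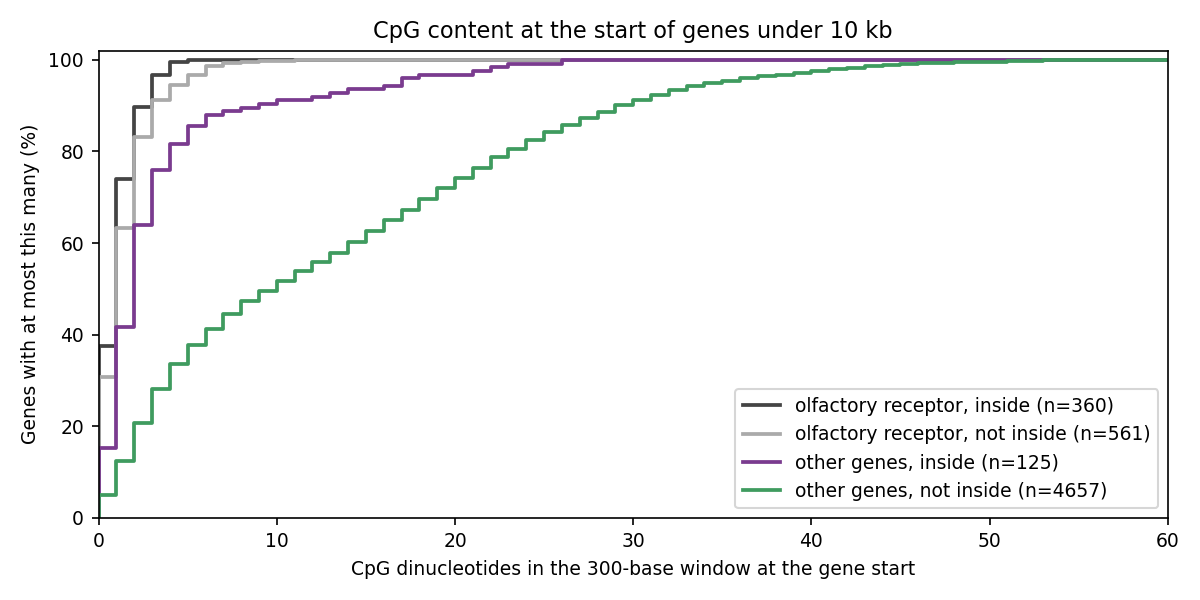
Cumulative share of genes under 10 kb (y axis, percent) by the number of CpG dinucleotides in the 300-base window at the gene start (x axis), for olfactory receptor genes and for genes outside both receptor families, inside and not inside islands. The 2 olfactory curves lie together at few CpG, while for the other genes the curve of those inside islands rises far earlier, 9.6% against 50.5% having at least 10.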

How the data were processed

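Each H3K9me3 library has 1 deposited list of islands, with chromosome, start, end and a whole number that the authors deposited without a header, taken here to be the island's count of ChIP reads. Per the submitters' processing notes, Bowtie2, SICER 1.1 and mm10 were used. For window size, gap size, error threshold, duplicate handling and use of the input, the value is not given in the sources used here. Coordinates lie on a grid of 500 bases and were converted to first and last base counted from 1. Counts carry no scaling, are not comparable in depth between the lists, and served to describe islands.

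Genes came from a RefSeq table of GRCm38.p6, the assembly that mm10 names. Gene entries on scaffolds, recognised by table order, were left out. A gene was whole in a list when 1 island held all its bases. Families were assigned by 40 symbol patterns. Start windows were the RefSeq promoter entries nearest the gene's 5′ end, compared by global alignment in Biopython 1.88. Counting used Python 3.11.15, pandas 2.3.3, numpy 2.4.6 and scipy 1.17.1, and was checked on simulated data. Shares of islands have exact Clopper-Pearson intervals. With 1 library per genotype no p-value was computed.

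The regions, families and gene lists were chosen with earlier results of these data known. Genes were named by rule. From each list it took the 4 islands with most genes, the 3 longest and the 3 densest, then the 3 longest genes per state, up to 2 genes per family and state with most reads, and every gene of families with at most 5. Other names, and the groups outside families, were chosen after their values were seen. Some results are not reported here.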

Additional observations from a re-analysis of the deposited data

Results flagged for a closer look

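On the mitochondrial genome, which is outside the autosomal comparison, the KO list held 2 islands with 17486 reads that contained 6 of the 13 protein-coding genes whole, ND1, ND2, COX1, ND5, ND6 and CYTB. The WT list had 0 islands there. This was noted because it is signal in data that the comparison does not use. Mitochondrial DNA is not packed with histones. On chromosomes X and Y neither list held a whole protein-coding gene, with 2 and 1 islands in WT and 9 and 4 in KO.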

How the results depend on the processing

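No paired analysis was possible because there is only 1 library for each genotype, and for the same reason none could be left out. Among islands above the median reads per kb of their own list, 112 in WT and 193 in KO held whole genes, with 127 and 209 genes, of which 92 were in WT alone and 174 in KO alone. With 2 kb on each side of the gene required, there were 173 islands in WT and 258 in KO, with 192 and 282 genes and 221 genes in KO alone. When at least 50% of the island had to be covered, the overlap was 45.9% in WT and 28.6% in KO. The KO count of genes was above the WT count under every setting tried. With the KO list reduced to the WT number of islands, 312 KO islands held 349 genes. That reduction kept the KO islands with most reads. It favours long islands, which hold whole genes more often, and is no neutral match for island number. The KO minus WT difference for olfactory receptor genes, 121, was 54 with the reduced list and between 66 and 144 otherwise, and for vomeronasal type 1 genes, 21, it was 7 with the reduced list. For all other genes, the difference of 4 became -1 above the median density, -14 with the reduced list, -9 with 90% of the gene inside, and -6 without clone-type symbols. The causes were not tested. Chosen after seeing the data were leaving out the densest 1% of islands for the gene counts, applying the gene settings to the count of islands, all settings of the family differences, and those of genes in 1 list alone except the one that allows no base in the other list. Depth is unknown, so uncalled islands in the WT list cannot be told apart from absence of the mark.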
